A study of Mus musculus with 95 samples.

Results

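The core circadian clock of mammals is described here by 10 genes, Arntl, Clock, Npas2, Per1, Per2, Per3, Cry1, Cry2, Nr1d1 and Nr1d2. They were taken by gene symbol as a list, and each has 1 row among the 55401 rows of the count table. Polyadenylated RNA had been sequenced from C57BL/6J mice, an inbred laboratory strain, in 4 tissues: the cortex, the kidney, the liver and WAT, the lipid-storing white adipose tissue. Mice labelled Stim were kept in TLS, a torpor-like state, for 3 months and were 29.3 weeks old. Control mice, labelled Con, were also 29.3 weeks old, and time-0 mice, labelled T0, were 17.4 weeks old. There were 8 animals in every group, of which 4 carry the sex letter F and 4 the letter M, and the same animal labels recur in the 4 tissues, which makes 95 libraries. The WAT library of control animal 9BA4 is not analysed here, so WAT has 7 controls, 4 F and 3 M. The sources used here do not say how TLS was brought about, or at what time of day tissues were taken. In torpor, small mammals such as mice let metabolism and body temperature drop for a time and so spend less energy.

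The clock is a feedback loop of transcription that runs in nearly every cell with a period of about a day. Arntl (also called Bmal1) pairs with Clock, or with its relative Npas2, and the pair switches on the Per and Cry genes through a DNA element called the E-box. Per and Cry proteins gather, enter the nucleus and shut that pair off again. The same pair also switches on Nr1d1 and Nr1d2, which encode the nuclear receptors REV-ERB alpha and REV-ERB beta. These receptors repress Arntl and Cry1 by competing with ROR activators for an element called the RORE. Further input comes through the D-box, which binds Dbp, Tef, Hlf and the repressor Nfil3. In liver, kidney and fat the levels of Arntl and Nr1d1 peak at opposite times of the day, and both feeding and body temperature can set the phase of these peripheral clocks. A single library per animal therefore records the level at 1 moment, and a lower level cannot be told apart from a shifted rhythm.

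Promoter windows of 4 members are shown because the results turn on Cry1, Nr1d1 and Arntl, and because Per3 holds the D-box. They come from RefSeq on GRCm38.p6 and run from 250 bases before to 50 bases after an annotated start. Such windows were found for 9 of the 10 members, 13 windows in all, and Per2 is named only. Capitals mark 3 motifs searched on both strands: the E-box CACGTG, the D-box TTATGTAA and AGGTCA, the core of the RORE. The Cry1 window lies at chr10:85185005-85185304 on the minus strand, the Nr1d1 window at chr11:98775328-98775627 on the minus strand, the Arntl window at chr7:113207261-113207560 on the plus strand and the Per3 window at chr4:151044616-151044915 on the minus strand.
Cry1: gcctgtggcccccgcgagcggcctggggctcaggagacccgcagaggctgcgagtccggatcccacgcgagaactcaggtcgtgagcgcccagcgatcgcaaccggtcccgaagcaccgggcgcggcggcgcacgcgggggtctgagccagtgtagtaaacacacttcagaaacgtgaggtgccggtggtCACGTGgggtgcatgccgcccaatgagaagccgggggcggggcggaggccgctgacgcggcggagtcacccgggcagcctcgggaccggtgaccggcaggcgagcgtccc
Nr1d1: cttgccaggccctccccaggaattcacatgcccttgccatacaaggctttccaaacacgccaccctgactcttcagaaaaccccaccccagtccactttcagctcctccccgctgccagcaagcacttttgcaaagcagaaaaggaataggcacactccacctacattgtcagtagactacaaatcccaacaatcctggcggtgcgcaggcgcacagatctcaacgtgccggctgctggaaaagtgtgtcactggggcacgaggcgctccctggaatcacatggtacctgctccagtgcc
Arntl: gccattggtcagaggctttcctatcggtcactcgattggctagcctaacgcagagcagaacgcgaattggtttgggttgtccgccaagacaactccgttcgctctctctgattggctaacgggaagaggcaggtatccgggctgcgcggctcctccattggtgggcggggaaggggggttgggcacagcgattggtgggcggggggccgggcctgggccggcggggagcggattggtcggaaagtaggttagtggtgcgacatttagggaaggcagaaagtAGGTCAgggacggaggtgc
Per3: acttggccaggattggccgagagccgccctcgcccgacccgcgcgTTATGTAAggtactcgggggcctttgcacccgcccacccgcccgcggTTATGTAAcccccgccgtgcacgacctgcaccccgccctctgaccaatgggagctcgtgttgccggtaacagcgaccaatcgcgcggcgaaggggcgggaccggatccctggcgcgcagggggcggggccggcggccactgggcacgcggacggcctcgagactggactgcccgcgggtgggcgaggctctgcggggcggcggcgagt

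The Cry1 window holds 1 E-box, which begins at position -60 from the annotated start. The Arntl window printed holds 1 RORE core at position 31, while a second Arntl window in RefSeq, which starts at 113207215 and ends at 113207514, holds none of the 3 motifs, and the Per3 window holds 2 D-boxes at positions -205 and -158. None of the 3 motifs is in the Nr1d1 window as printed. Among the windows not printed, a window of Per1 holds an E-box at -166 and a RORE core at -137, a window of Nr1d2 a RORE core at -77 and a window of Clock a RORE core at -119. Of 32851 promoter windows of the same length, 7.15% hold the E-box, 0.938% the D-box and 16.3% the RORE core. A match describes letters and is not a measured binding site, and no match says only that these letters are not in this window.

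The libraries held between 4031533 and 29269511 counts, with both extremes in liver. The sex label fitted the sex-linked genes in 95 of 95 libraries, but time-0 animals 4 and 5 carry another sex letter in kidney than in their other tissues. The defining markers of each tissue, 5 genes per list, were above 0 in all of its libraries. TLS animal A5DA, labelled M, stood apart in 3 tissues. Its 5 immune cell markers summed to 5991 CPM in WAT, 553 CPM in kidney and 294 CPM in liver, the highest of all libraries of each tissue, and its kidney, liver and WAT markers were the lowest of theirs, at 7034, 26660 and 3916 CPM. Several results below are also given without this animal. In bulk tissue, fewer cells of a type and less RNA per cell cannot be told apart. All TLS libraries carry lower library numbers than all control libraries, so that anything that followed this order cannot be told apart from treatment. The time-0 libraries up to animal 4 are numbered below all control libraries, and those from animal 5 on above all TLS libraries. Outside kidney the former are the F and the latter the M animals, so order cannot be told apart from sex in time-0 mice. Several members overlap another annotated gene: Nr1d1 overlaps Thra and Cry2 overlaps D930015M05Rik on the opposite strand, Arntl holds the antisense gene Gm45355, and Per3 lies within the span of Camta1. The sources used here do not say whether the counting used strand, so reads from the shared parts cannot be told apart.

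Levels were first set side by side across the 4 tissues, scaled together by TMM (trimmed mean of M values, which aligns the bulk of genes between libraries) and divided by exon length so that genes can be compared. In cortex the median over all 24 libraries was highest for Nr1d1, at 37.5 CPM per kb, followed by Cry2 at 23.1 CPM per kb and Per1 at 20.7 CPM per kb. Arntl was the lowest member there, at 2.77 CPM per kb. Over all libraries Nr1d1 also had the highest median of the members in kidney, at 15.8 CPM per kb, in liver, at 18.2 CPM per kb, and in WAT, at 38.7 CPM per kb. In liver that order depended on the group, since in control mice alone Nr1d1 had 10.3 CPM per kb, below Nr1d2 at 13.02 CPM per kb and Per1 at 11.3 CPM per kb. The activators Arntl and Npas2 were much lower outside the brain. Arntl had a median of 0.216 CPM per kb in kidney, 0.256 CPM per kb in liver and 0.360 CPM per kb in WAT. Npas2, which pairs with Arntl in the forebrain, had 7.69 CPM per kb in cortex against 0.201 in kidney, 0.0183 in liver and 0.106 in WAT. Clock, the other partner, lay within a narrower range, at 3.83 CPM per kb in cortex and 1.56, 1.91 and 3.08 CPM per kb in kidney, liver and WAT.

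**Figure D1:**
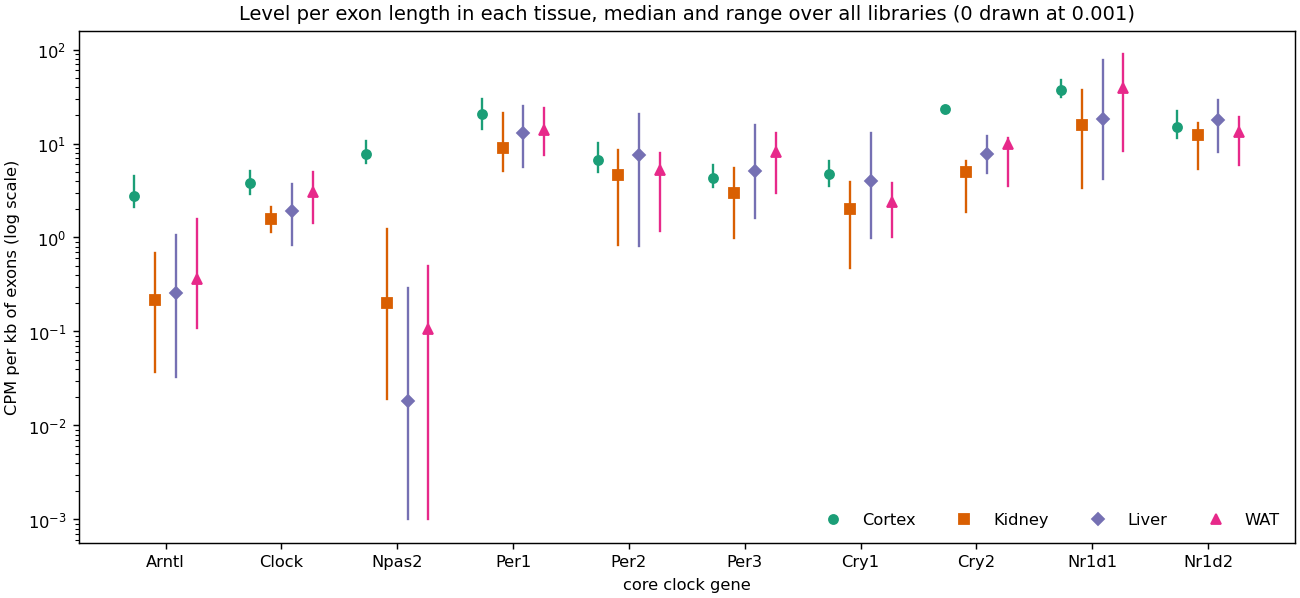
Level of each core clock gene in the 4 tissues, in CPM per kb of exons on a log axis, as the median (symbol) and the range over all libraries of the tissue (line). Npas2 spans the widest range between tissues, with a median of 7.69 CPM per kb in cortex and 0.0183 CPM per kb in liver.

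All 10 members were lower in kidney than in cortex in the joint edgeR fit, where 87.6% of genes differed in either direction, and all 10 kept that direction and the call under 3 scalings. The log2 difference of kidney against cortex was -5.18 for Npas2, -3.45 for Arntl and -2.28 for Cry2, and it was smallest for Nr1d2 at -0.45 and Per2 at -0.49. In WAT against cortex 9 members differed (85.9% of genes), 7 of them with the same sign and a call under the 3 scalings. Per3 was higher in WAT by 0.83 on the log2 scale, and Nr1d1 did not differ beyond its spread (0.011 by TMM). In liver against cortex 7 members differed (89.1% of genes). Arntl at -3.28, Npas2 at -8.35, Cry2 at -1.52, Clock at -0.96, Nr1d1 at -0.77 and Per1 at -0.71 were lower in liver under all 3 scalings. The order of Cry1, Nr1d2, Per2 and Per3 between liver and cortex turned with the scaling, from differences of 0.018, 0.10, 0.41 and 0.22 by TMM to -1.12, -1.02, -0.67 and -0.88 by library totals alone. The median of all genes in liver against cortex moved from -0.17 to -1.27 between these scalings. Liver against kidney turned likewise for 8 of the 10 members, and only Cry1 (1.48 by TMM) and Npas2 (-3.17 by TMM) kept sign and call there. In WAT against kidney 8 members differed by TMM (76.6% of genes) and 7 did so under the 3 scalings, led by Per3 at 1.36 and Nr1d1 at 1.31. In WAT against liver 8 members differed by TMM (80.5% of genes) and in liver against kidney 9 (74.1% of genes). Of the 8 in WAT against liver, 5 kept sign and call under the 3 scalings. The same animals supplied all tissues, and with the animal as a replicate block Per2 lost its call in liver against cortex (0.27, adjusted p = 0.147) and Arntl gained one in WAT against liver (0.53, adjusted p = 0.0158).

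The first comparison asked what 3 months of TLS did to the clock genes, against control mice of the same age. No member passed an adjusted p of 0.05 in any tissue by edgeR. In cortex the 10 log2 fold changes ran between -0.075 and 0.21 with a median size of 0.057, against 0.12 over all genes. Sizes were larger in liver, with a median of 0.40 over 9 members against 0.26 over all genes. An unadjusted p below 0.05 was reached by 1 member each in cortex and kidney, by 3 in liver and by 2 in WAT. Cortex had 22.5% of all genes below that p, kidney 8.45%, liver 17.5% and WAT 11.1%. Of all genes tested, the called share was 5.41% for cortex, 0.231% for kidney, 1.95% for liver and 0.00596% for WAT. By direction, 2.99% were higher and 2.42% lower in cortex, 0.0812% and 0.15% in kidney, 0.684% and 1.26% in liver, and 0.00596% and 0% in WAT. DESeq2 and limma called 0 members in cortex, kidney and WAT and 1 each in liver. Of all genes in liver, DESeq2 called 620 and limma 1182, against 265 by edgeR. Npas2 did not pass the filter on low counts in liver and was not tested there in the fits reported. In liver 7 of 8 TLS, 3 of 8 control and 1 of 8 time-0 libraries had 0 counts of Npas2, and the highest had 13.

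**Figure D2:**
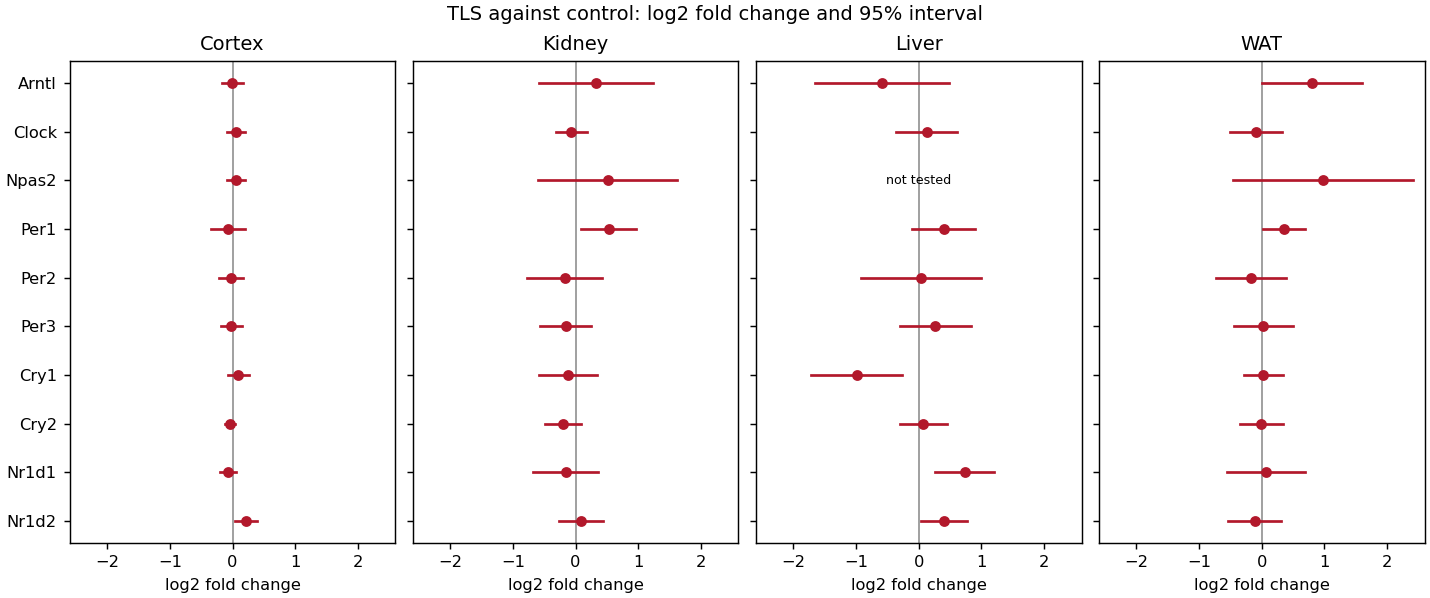
Log2 fold change of TLS against control for each core clock gene (point) with its 95% interval (line), by tissue, from the edgeR fit. Cortex intervals are narrow and close to 0, while in liver the points of Nr1d1 (0.73) and Cry1 (-0.99) lie apart from 0 on opposite sides.

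Among the activators, Arntl in cortex had a lowest value of 21.8, a median of 22.7 and a highest value of 29.3 CPM in TLS mice, against 20.2, 23.9 and 27.0 CPM in control mice. The 2 groups overlapped almost fully, and the log2 fold change was -0.0016 with a 95% interval of -0.18 to 0.17. In WAT, Arntl had 1.39, 3.24 and 14.9 CPM (lowest, median, highest) in TLS mice, against 1.05, 2.63 and 4.74 CPM in control mice. The highest of these values belonged to A5DA. The fold change of WAT Arntl was 0.80 ± 0.39 (SE, adjusted p = 0.449) with A5DA and 0.48 (adjusted p = 0.674) without it. In kidney and liver the intervals of Arntl were wide, -0.58 to 1.24 and -1.66 to 0.49. Without A5DA the kidney value was 0.14, against 0.33 with it. Clock had log2 fold changes between -0.087 and 0.13 in the 4 tissues, and none had an unadjusted p below 0.05.

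Of the repressors, Per1, an immediate early gene of the clock as well as an E-box target, had an unadjusted p below 0.05 in kidney and WAT. Kidney Per1 had 38.5, 83.2 and 128.8 CPM (lowest, median, highest) in TLS mice, against 31.5, 50.8 and 77.8 CPM in control mice, and 5 of 8 TLS mice lay above all controls. Its log2 fold change was 0.53 ± 0.21 (adjusted p = 0.477), and in WAT it was 0.36 ± 0.16 (adjusted p = 0.399). Liver Cry1, which encodes a strong repressor of the Arntl pair, had 1.80, 7.09 and 15.2 CPM in TLS mice, against 5.28, 17.9 and 23.6 CPM in control mice. All 8 TLS mice lay below the mean of controls of their sex, but the groups overlapped, and the log2 fold change was -0.99 ± 0.35 (adjusted p = 0.136). Without A5DA, which had the lowest value, it was -0.83 (adjusted p = 0.13). Per2, Per3 and Cry2 had log2 fold changes between -0.20 and 0.27 in the 4 tissues, and none had an unadjusted p below 0.05.

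Nr1d1 in liver came closest to a call. It had 24.9, 29.0 and 43.4 CPM (lowest, median, highest) in TLS mice, against 7.03, 17.6 and 35.6 CPM in control mice, and 2 of 8 TLS mice lay above all controls. The log2 fold change was 0.73 ± 0.23 (adjusted p = 0.0927 by edgeR), and 0.76 (adjusted p = 0.0708) without A5DA. DESeq2 gave 0.74 (adjusted p = 0.0414) and limma with sample weights 0.90 (adjusted p = 0.018), both past the threshold. Over all alternative settings other than leaving out 1 animal, the adjusted p ran between 0.018 and 0.907. Leaving out TLS animal B23B alone brought it to 0.0384. Nr1d2 had a log2 fold change of 0.40 ± 0.18 in liver (adjusted p = 0.242) and of 0.21 ± 0.085 in cortex (adjusted p = 0.133). Without control animal D215 the cortex value was 0.26 and was called (adjusted p = 0.0485). In cortex, 3 nuclear RNAs (Malat1, Neat1 and Meg3) moved with group and sex: they took 0.268% of counts in M and 0.273% in F TLS mice, against 0.613% in M and 0.311% in F control mice. With that share as a covariate, edgeR called 0 of the 10 cortex members and 2 of all genes, and cortex Nr1d2 had a log2 fold change of 0.11 (adjusted p = 0.805). In M mice the share lay between 0.212% and 0.318% with TLS and between 0.577% and 0.681% in controls, without overlap. In F mice the ranges overlapped. The fit therefore cannot fully tell the share from the group, and these values do not show which changes depend on the share.

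The sexes were then compared. Liver Nr1d1 averaged 30.8 ± 8.52 CPM in M TLS mice and 11.8 ± 4.19 CPM in M control mice (SD, n = 4 each). In F mice the averages were 32.9 ± 7.12 CPM with TLS and 29.4 ± 7.68 CPM in controls. The log2 fold change was 1.37 in M (adjusted p = 0.0479 with M libraries alone) and 0.17 in F (adjusted p = 0.907 with F libraries alone). The M value minus the F value was 1.22 ± 0.38 on the log2 scale, with an unadjusted p of 0.004 and an adjusted p of 0.724 by edgeR. The 4 M controls A367, E329, 9BA4 and 5A66 had 12.9, 15.3, 11.1 and 54.02 CPM of Nr1d1 in kidney and 7.03, 10.6, 12.4 and 17.1 CPM in liver. In WAT A367, E329 and 5A66 had 47.4, 34.1 and 155 CPM. F controls lay between 52.4 and 84.2 CPM in kidney and between 120.5 and 162.7 CPM in WAT, so that 5A66 was within their range in both tissues and the other M controls below it.

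No member was called for a sex difference of the TLS effect in any tissue by edgeR, where 5.08% of genes were called in cortex, 0.00735% in liver and 0% in kidney and WAT. In cortex 2.37% had a larger value in M and 2.71% a smaller one. Unadjusted p values were below 0.05 for 1 member each in cortex, kidney and liver and for 2 in WAT, and for 22.5%, 8.28%, 6.17% and 15.3% of all genes in cortex, kidney, liver and WAT. Cortex Nr1d2 had a difference of 0.42 ± 0.15 (adjusted p = 0.099), which was 0.53 and was called without A5DA (adjusted p = 0.0254). Averages of cortex Nr1d2 were 128.7 ± 20.8 CPM in M TLS mice against 96.2 ± 3.61 CPM in M controls, and 114.8 ± 12.3 CPM in F TLS mice against 114.4 ± 12.01 CPM in F controls (SD, n = 4 each). The nuclear RNA share moved in the same animals, as given above, and its part in this value was not tested. Limma called 0 members in cortex, 1 in kidney (Nr1d2, adjusted p = 0.0113), 1 in liver (Nr1d1, adjusted p = 0.0275) and 0 in WAT. Of all genes, limma called 1992 of 16005 in kidney and 24 of 13604 in liver.

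The next comparison was control against time-0 mice, which differ in age and in whatever else separated their collection. Library order also separated most F time-0 libraries from the controls, and its part in the values below was not tested. Cry1 rose and Nr1d1 fell in controls in more than 1 tissue, and Arntl fell in cortex. In cortex 5 of 10 members were called, where 21.2% of all genes were. In kidney 2 of 10 were called (0.312% of genes), in liver 1 of 9 (0.529% of genes) and in WAT 1 of 10 (0.161% of genes). Of all genes, 10.8% were higher and 10.5% lower in cortex, 0.137% and 0.175% in kidney, 0.213% and 0.316% in liver, and 0.131% and 0.0298% in WAT.

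**Figure D3:**
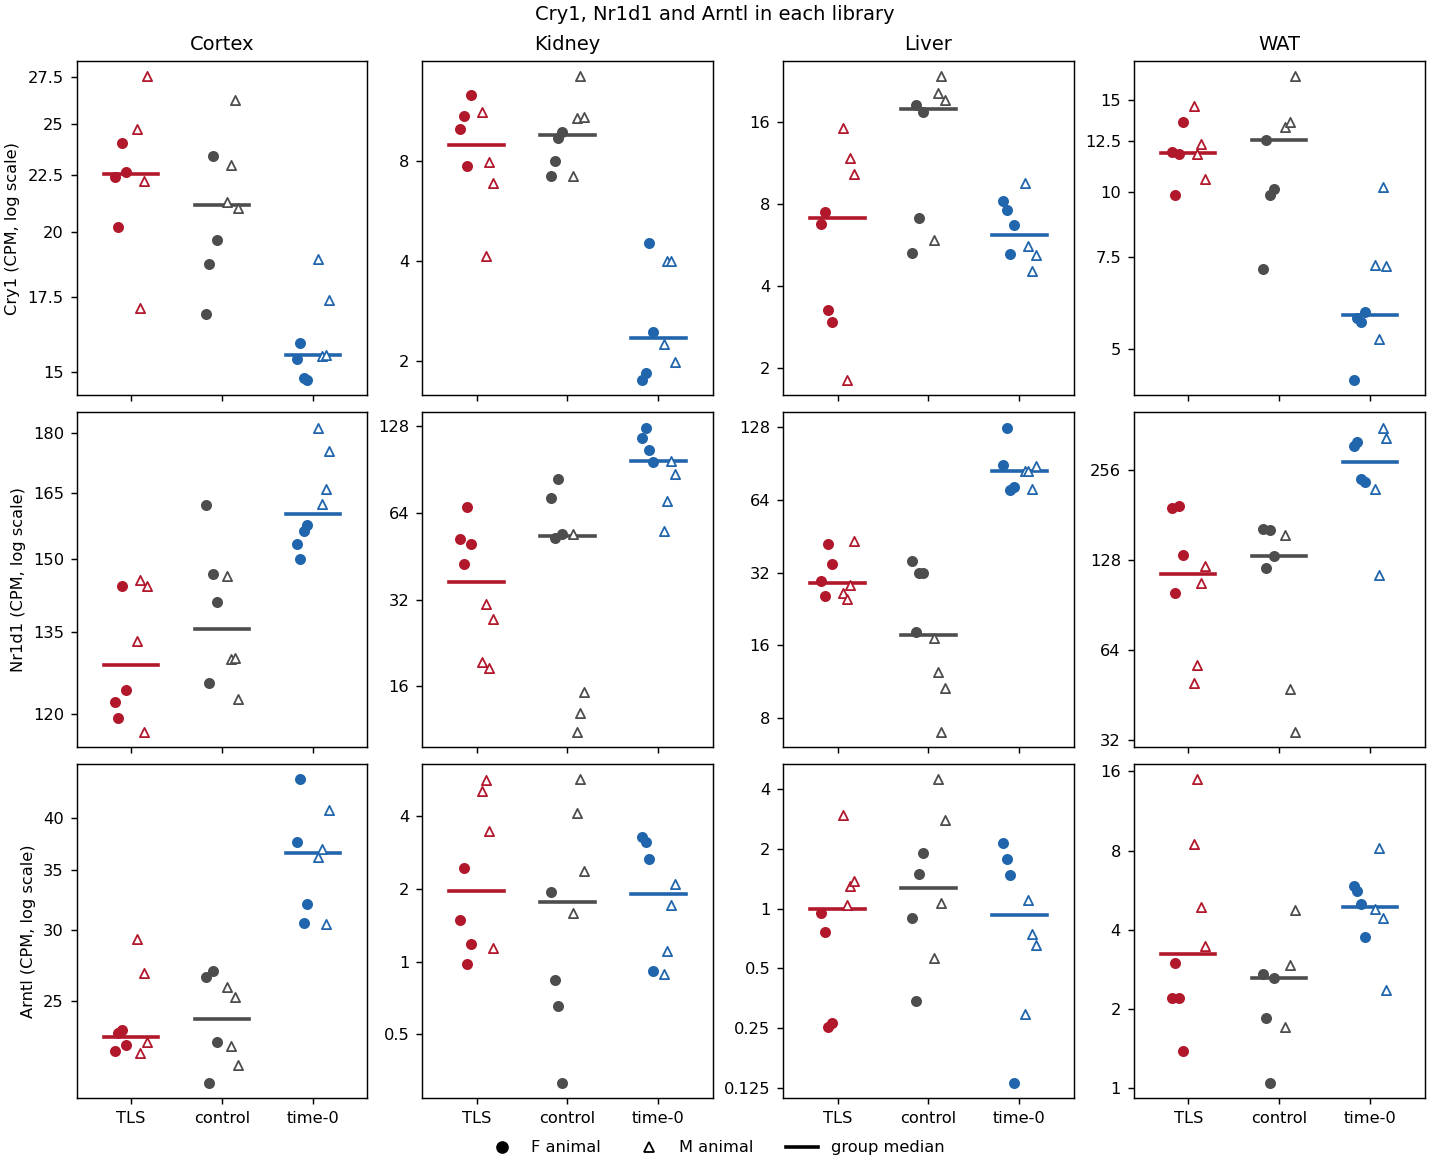
Cry1, Nr1d1 and Arntl in each library, in CPM on a log axis, by tissue and group; filled circles are F animals, open triangles M animals and bars group medians. Kidney Cry1 had medians of 8.93, 9.59 and 2.34 CPM in TLS, control and time-0 mice, with 1 TLS mouse within the time-0 range, and liver Nr1d1 had medians of 29.0, 17.6 and 84.1 CPM with time-0 above both other groups.

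Kidney Cry1 had 7.20, 9.59 and 14.4 CPM (lowest, median, highest) in control mice, against 1.75, 2.34 and 4.51 CPM in time-0 mice. All 8 controls lay above all time-0 mice, which is so for either direction in 0.175% of genes, and the log2 fold change was 1.75 ± 0.23 (adjusted p = 0.000337). WAT Cry1 had 7.11, 12.6 and 16.7 CPM in control mice, against 4.36, 5.80 and 10.2 CPM in time-0 mice, a rise of 0.90 ± 0.15 (adjusted p = 0.0117). The call in WAT was lost without control animal E329 (0.84, adjusted p = 0.0523). Cortex Cry1 rose by 0.41 ± 0.084 (adjusted p = 0.00132). Liver Cry1 had a log2 fold change of 1.12 ± 0.35 (adjusted p = 0.169), with 5 of 8 controls above all time-0 mice. It was called by limma (1.18, adjusted p = 0.0141) and with only the 2 groups in the fit (1.15, adjusted p = 0.0402).

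Liver Nr1d1 had 7.03, 17.6 and 35.6 CPM in control mice, against 70.5, 84.1 and 127.3 CPM in time-0 mice. The groups did not overlap, as in 0.345% of genes, and Nr1d1 fell by 2.16 ± 0.24 on the log2 scale (adjusted p = 1.53e-05). Kidney Nr1d1 had 11.1, 53.1 and 84.2 CPM in control mice, against 55.5, 96.7 and 126.6 CPM in time-0 mice, and fell by 1.25 ± 0.26 (adjusted p = 0.035). That call did not hold without time-0 animals 4 and 5 (-1.37, adjusted p = 0.0616), without the sex covariate (-1.09, adjusted p = 0.424) or in 10 of 24 fits that left out 1 library. WAT Nr1d1 had a log2 fold change of -1.30 ± 0.31 (adjusted p = 0.0935), and DESeq2 and limma called it (adjusted p = 0.00418 and 0.0056). Cortex Nr1d1 fell by 0.24 ± 0.063 (adjusted p = 0.0086). Nr1d2 was not called by edgeR in any tissue, with log2 fold changes of 0.20 for cortex, -0.025 for kidney, -0.49 for liver and 0.040 for WAT. Liver Nr1d2 was called by limma (-0.46, adjusted p = 0.0315) and with only the 2 groups in the fit (-0.49, adjusted p = 0.0394). With F libraries alone Nr1d2 was called in cortex (0.35, adjusted p = 0.0232) and kidney (0.42, adjusted p = 0.00873). Most F time-0 libraries were numbered below the controls, as given above, and the part of this order was not tested.

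Arntl in cortex had 20.2, 23.9 and 27.0 CPM in control mice, against 30.4, 36.6 and 44.3 CPM in time-0 mice. All 8 controls lay below all time-0 mice, as in 2.56% of genes counting both directions, and Arntl fell by 0.60 ± 0.084 on the log2 scale (adjusted p = 3.75e-05). Its partners fell too in cortex, Clock by 0.28 ± 0.069 (adjusted p = 0.00477) and Npas2 by 0.34 ± 0.070 (adjusted p = 0.00121). In WAT, Arntl had a log2 fold change of -1.02 ± 0.38 (adjusted p = 0.288) and Npas2 of -1.80 ± 0.65 (adjusted p = 0.27), neither called by edgeR. Arntl in kidney (-0.14 ± 0.46) and liver (0.58 ± 0.54) had intervals that spanned 0. The Per genes were not called in any tissue. Per2 had its largest values in WAT (0.88 ± 0.27, adjusted p = 0.206) and kidney (0.65 ± 0.29, adjusted p = 0.402), and limma called both (adjusted p = 0.0362 and 0.00403).

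TLS mice were also set against time-0 mice, a comparison that shares the time-0 libraries with the one above and so is no independent repeat of it. Here library order separated most M time-0 libraries from the TLS libraries, and its part was not tested. In cortex 7 of 10 members were called, where 35.7% of all genes were. In kidney 2 of 10 were called (0.681% of genes), in liver 1 of 9 (1.34% of genes) and in WAT 1 of 10 (0.226% of genes). Among all genes tested, 18.1% were higher and 17.6% lower in cortex, 0.337% and 0.344% in kidney, 0.588% and 0.75% in liver, and 0.161% and 0.0655% in WAT. Cortex Arntl had 21.8, 22.7 and 29.3 CPM in TLS mice, all below the 30.4, 36.6 and 44.3 CPM (lowest, median, highest) of time-0 mice, and fell by 0.60 ± 0.084 (adjusted p = 6.62e-06). Clock fell by 0.23 ± 0.069, Npas2 by 0.29 ± 0.070, Nr1d1 by 0.31 ± 0.063 and Per1 by 0.35 ± 0.13. Cry1 rose by 0.50 ± 0.084 and Nr1d2 by 0.41 ± 0.085. The call of Per1 (adjusted p = 0.0429) was lost in 12 of 24 fits that left out 1 library, TLS animal A5DA among them (adjusted p = 0.0527). Groups did not overlap in cortex for Arntl and Nr1d1, as in 7.09% of genes.

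The nuclear RNA share of cortex libraries averaged 0.268% in M and 0.273% in F TLS mice, against 0.513% in M and 0.568% in F time-0 mice. With that share as a covariate 3 of the 7 cortex members were called, as were 808 of the 16609 genes tested. The log2 fold change was then -0.26 for Clock (adjusted p = 0.161), -0.19 for Npas2 (adjusted p = 0.314), -0.064 for Per1 (adjusted p = 0.887) and 0.25 for Nr1d2 (adjusted p = 0.27). The value of Clock was thus as large as without the covariate, and that of Per1 was smaller. In cortex the share lay between 0.209% and 0.318% in TLS mice and between 0.452% and 0.603% in time-0 mice, without overlap. The fit therefore cannot tell the share from the group, and these values do not show which members depend on the share. Choroid plexus markers also moved with the groups in cortex. Their 5 genes summed to between 4.53 and 62.6 CPM (median 35.2) in TLS mice and between 15.3 and 74.8 CPM (median 36.9) in controls, against between 2.26 and 43.8 CPM (median 8.61) in time-0 mice. The 5 immune cell markers summed to between 19.96 and 48.4 CPM (median 31.2) in TLS mice and between 18.1 and 23.6 CPM (median 21.8) in controls, against between 14.0 and 19.6 CPM (median 17.5) in time-0 mice, with all TLS mice above all time-0 mice. The part of both marker lists in the cortex values was not tested.

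Outside the brain, kidney Cry1 had 4.13, 8.93 and 12.6 CPM in TLS mice, against 1.75, 2.34 and 4.51 CPM in time-0 mice, and rose by 1.63 ± 0.23 (adjusted p = 0.000556). WAT Cry1 had 9.84, 11.9 and 14.6 CPM in TLS mice, against 4.36, 5.80 and 10.2 CPM in time-0 mice, and rose by 0.93 ± 0.15 (adjusted p = 0.0123). Liver Cry1 had a log2 fold change of 0.13 ± 0.35 (adjusted p = 0.905). Nr1d1 fell by 1.40 ± 0.26 in kidney (adjusted p = 0.00825) and by 1.43 ± 0.23 in liver (adjusted p = 0.00103), where all 8 TLS mice lay below all time-0 mice, as in 0.294% of genes. In WAT it had a log2 fold change of -1.23 ± 0.29 (adjusted p = 0.0676), called by DESeq2 (adjusted p = 0.00407) and limma (adjusted p = 0.0286). Without the sex covariate the kidney call of Nr1d1 was lost (-1.30, adjusted p = 0.163).

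**Figure D4:**
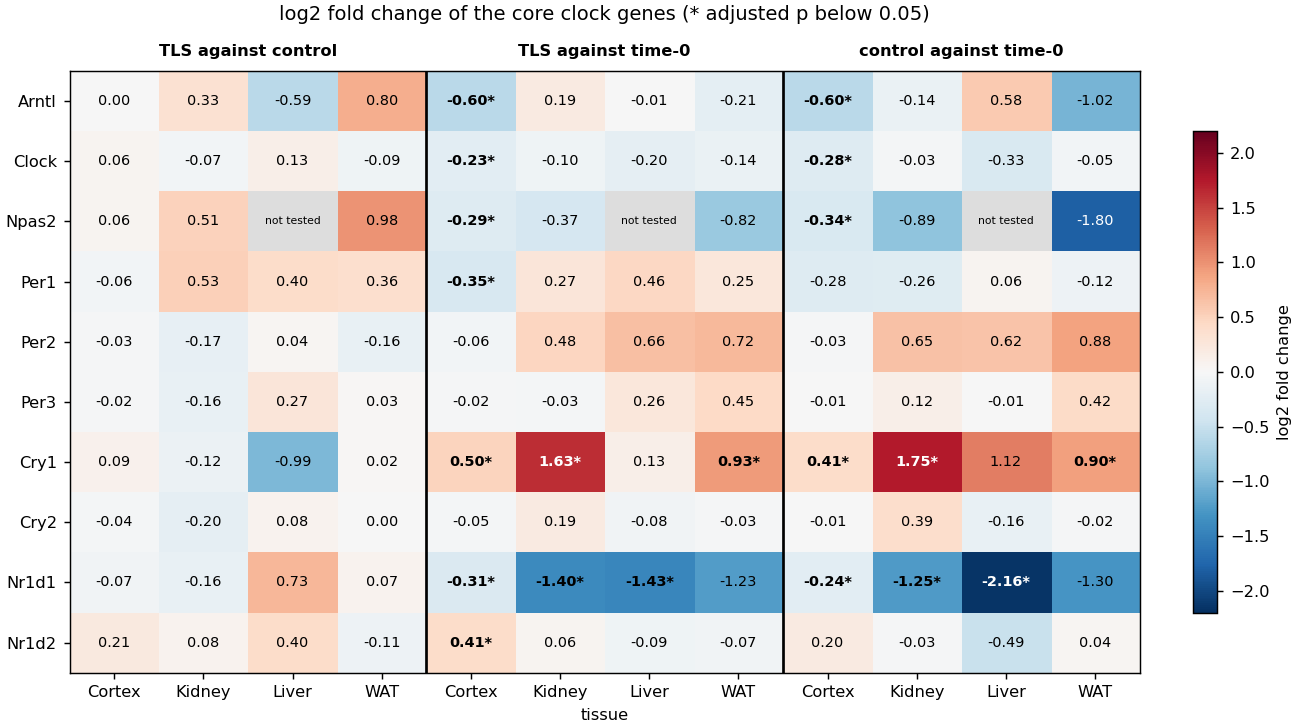
Log2 fold change of each core clock gene in the 3 comparisons and 4 tissues, with an asterisk where the edgeR adjusted p was below 0.05. The TLS against control columns hold no asterisk, and in both comparisons with time-0 Cry1 is positive and Nr1d1 negative in all 4 tissues.

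Cry1 and Nr1d1 were also set against each other within each library. In kidney the log2 CPM of Cry1 minus that of Nr1d1 lay between -3.09 and -0.78 in TLS mice and between -3.30 and 0.15 in control mice, against between -6.02 and -4.10 in time-0 mice. In liver it lay between -3.71 and -0.79 in TLS mice and between -2.72 and 1.73 in control mice, against between -4.07 and -3.13 in time-0 mice. TLS and control mice overlapped in both tissues. Animals of a group also differed more from each other outside the brain. The median SD of log2 CPM over the 10 members in kidney was 0.656 in TLS mice and 0.537 in control mice, against 0.453 in time-0 mice. In liver it was 0.647 in TLS mice and 0.739 in control mice, against 0.380 in time-0 mice. In WAT it was 0.564 in TLS mice and 0.408 in control mice, against 0.428 in time-0 mice. In cortex it was 0.179, 0.164 and 0.157 in TLS, control and time-0 mice. Without A5DA the TLS values were 0.481 in kidney, 0.525 in liver, 0.308 in WAT and 0.154 in cortex. Genes as a whole also varied more outside the brain, with a common coefficient of biological variation of 0.144 in cortex against 0.268 in kidney, 0.377 in liver and 0.390 in WAT.

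Whether the TLS effect itself differed between tissues was tested in the joint fit of all libraries. That fit shares each gene's estimate of spread over all tissues, although genes varied more outside the brain, as given above. This limits every test of a difference between tissues by edgeR. No member was called by edgeR, where 4.39% of genes were, and 2 members had an unadjusted p below 0.05. Cry1 had log2 differences from the cortex effect of -0.21 in kidney, -1.06 in liver and -0.070 in WAT (adjusted p = 0.103), and Nr1d1 of -0.081, 0.82 and 0.15 (adjusted p = 0.223). Limma called both (adjusted p = 0.0265 for Cry1 and 0.0289 for Nr1d1), along with 3137 of all 20888 genes. Without TLS animal 47BE, Cry1 was called by edgeR (adjusted p = 0.0443). The difference between tissues of the control against time-0 change was tested in the same way after the data had been seen. Nr1d1 was the 1 member called, at an adjusted p of 0.00322, where 1.07% of genes were. Against the cortex change, its log2 fold change was lower by 1.02 in kidney, by 1.96 in liver and by 1.06 in WAT. With the animal as a replicate block the adjusted p was 3.92e-06. Limma called 6 members and 2919 of the 20888 genes. Cry1 had the next smallest p of the members (adjusted p = 0.0995), with differences from cortex of 1.34 in kidney, 0.68 in liver and 0.51 in WAT.

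Animals of the same group and sex still differed from each other, and members were compared over these deviations, in log2 CPM from the mean of group and sex. Arntl was set against each other member in each tissue, 36 relations in all, with 100000 permutations within group and sex. Of these, 7 passed an adjusted p of 0.05. In WAT, Arntl ran against Cry2 with a Pearson r of -0.76 (p = 9e-05, adjusted p = 0.00324) and a Spearman rho of -0.71 (p = 0.00031, adjusted p = 0.0112) over 23 libraries. It also ran against Nr1d2 (r = -0.75, adjusted p = 0.0182), Per3 (r = -0.74, adjusted p = 0.0182), Nr1d1 (r = -0.67, adjusted p = 0.0412) and Per1 (r = -0.55, adjusted p = 0.0412) in the same permutation test. Clock ran with Arntl in cortex (r = 0.69, adjusted p = 0.0407) and kidney (r = 0.55, adjusted p = 0.0412), both by permutation over 24 libraries. Among all 11671 genes compared in WAT, counted from the one most opposite to Arntl, Cry2 was in place 32, Nr1d2 in 41, Per3 in 44, Nr1d1 in 225 and Per1 in 915. Clock, counted in the same way, was in place 12019 of 12202 in cortex and 11183 of 11380 in kidney. Spearman rho for these 6 relations was -0.68, -0.68, -0.64, -0.57, 0.67 and 0.60 in the same order, with permutation p of 0.0024, 0.0035, 0.0122, 0.0064, 0.00476 and 0.00424. Adjusted over the 36 relations, that of Nr1d1 in WAT missed the threshold (Spearman permutation adjusted p = 0.0629). In liver no relation was called.

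**Figure D5:**
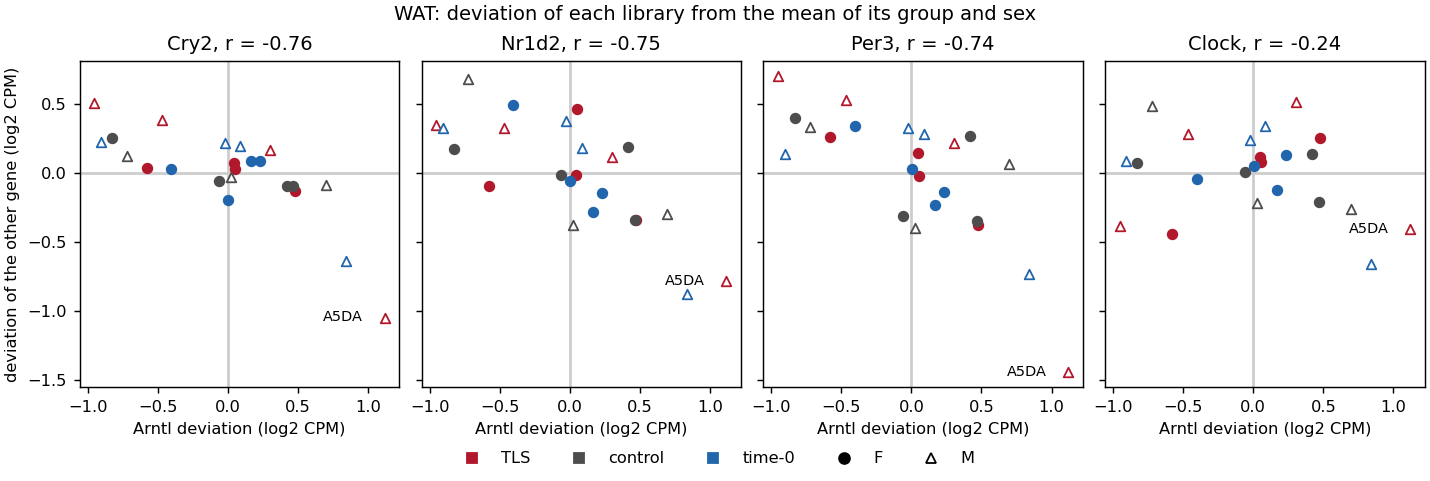
Deviation of Cry2, Nr1d2, Per3 and Clock against that of Arntl in WAT, both as log2 CPM from the mean of group and sex; each point is 1 library, filled circles F and open triangles M. Cry2, Nr1d2 and Per3 fall as Arntl rises (r = -0.76, -0.75 and -0.74), and animal A5DA lies at the right end of each panel.

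These relations rest in part on few animals. Without the 2 libraries farthest from the median of Arntl, r for Cry2 in WAT was -0.66 and none of the 36 relations was called. Without A5DA it was -0.71 (permutation adjusted p = 0.036) and was the 1 relation called. A5DA had 14.9 CPM of Arntl in WAT and the lowest Cry2 (28.5 CPM), Per2 (23.3 CPM), Per3 (36.1 CPM) and Nr1d2 (44.3 CPM) of the TLS group there. In kidney it had 5.63 CPM of Arntl and 6.49 CPM of Npas2, both the highest of the TLS group, with 5.40 CPM of Per2 and 10.6 CPM of Per3, both the lowest. In cortex it had 188 CPM of Cry2, against a median of 178 CPM in the TLS group. The immune and tissue markers of this animal are given above, and their part in these values was not tested.

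The same members were compared between tissues of the same animal, 60 relations over 10 members and 6 pairs of tissues, without time-0 animals 4 and 5 where kidney is one of the pair. Of these, 3 were called: Nr1d2 between kidney and WAT (r = 0.73, permutation adjusted p = 0.038), Per1 between kidney and WAT (r = 0.63, permutation adjusted p = 0.0354) and Nr1d1 between cortex and kidney (r = 0.62, permutation adjusted p = 0.038). Their Spearman rho values were 0.68, 0.64 and 0.68, with permutation p of 0.00227, 0.002 and 0.00174. Between kidney and WAT, r lay between 0.13 and 0.73 with a median of 0.57, and 2 of the 10 members were called. Npas2 had the lowest r there, with a Spearman rho of -0.062. The median r of the other 5 pairs of tissues lay between 0.20 and 0.41. Without the 2 animals farthest from the median no relation was called, and without A5DA 2 were, Per1 (r = 0.62, permutation adjusted p = 0.0192) and Nr1d1 (r = 0.78, permutation adjusted p = 0.0297) between kidney and WAT.

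Likeness to Arntl was also looked for among other genes, as Pearson r over the libraries of a tissue in the same deviations, with no test. In WAT the most opposite gene of 11662 compared was Dbp, an E-box target and D-box activator, at r = -0.84 over 23 libraries, followed by Cpeb1 (-0.83) and Tbc1d16 (-0.82). The most alike in WAT were Osbpl3 (0.79), Rnaseh2b (0.78) and Cep85 (0.78). In cortex the most alike were Senp6 (0.89), Tnks2 (0.86) and Atp2c1 (0.86), and the most opposite S100b, Banf1 and Ccs (-0.86, -0.86 and -0.85). In kidney r ran from -0.75 for Akip1 to 0.74 for Csnk1g1, and in liver from -0.75 for Dnttip1 to 0.78 for Lgalsl.

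Other genes of the clock, 30 regulators and outputs, were read from the same fits. In TLS against control, 1 of 30 rose in cortex, and 0 of 29 measured in kidney and 0 of 30 in WAT changed by edgeR. Unadjusted p values below 0.05 numbered 8 in cortex, 0 in kidney and 2 in WAT, where 22.5%, 8.45% and 11.1% of all genes had one. The gene that rose in cortex was Ppp1cb, a catalytic subunit of protein phosphatase 1, by 0.23 ± 0.056 (adjusted p = 0.0188). It was not called once the nuclear RNA share entered as a covariate (0.10, adjusted p = 0.62) or without control animals 9BA4, E329 or 5A66 in turn (adjusted p between 0.05 and 0.0579). As given above, the fit with the share cannot fully tell it from the group.

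In control against time-0 mice, Bhlhe41, a repressor of E-box genes, fell in liver by 1.79 ± 0.40 (adjusted p = 0.0364), a call lost in 12 of the fits that left out 1 library. In cortex 6 of the 30 rose and 3 fell, where 10.8% of all genes were higher and 10.5% lower. In WAT none was called by edgeR, with 6 at an unadjusted p below 0.05, as were 11.6% of all genes. The cortex rises included Tef (0.33 ± 0.046), a D-box activator, Skp1a (0.33 ± 0.068), part of the ubiquitin ligases that degrade Cry proteins, and Bhlhe41 (0.33 ± 0.069).

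In TLS against time-0 mice, 11 of the 30 rose and 7 fell in cortex, where 18.1% of all genes were higher and 17.6% lower. In liver Nfil3, the repressor at the D-box, had 11.9, 31.1 and 43.0 CPM in TLS mice, against 10.9, 15.1 and 19.7 CPM in time-0 mice, and rose by 0.95 ± 0.19 (adjusted p = 0.0102). With only the 2 groups in the fit its adjusted p was 0.0505. In cortex Skp1a (0.48 ± 0.068), Ppp1cb (0.35 ± 0.056) and Tef (0.27 ± 0.046) rose as well.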

How the data were processed

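Whole-number read counts per gene were deposited by the authors for 95 libraries in 1 table; per the submitters' processing notes STAR 2.7.10 and the builds mm10 and GRCm38 were used, and DESeq2 is named there. The first line of the table holds the word "corrected", and the sources used here give neither its meaning nor the annotation and strand setting of the counting. The table was used as raw counts. Ages come from its header.

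Each tissue was fitted in R 4.3.3 with edgeR 4.0.16 (filterByExpr with a minimum count of 10, TMM, robust quasi-likelihood test, treatment and sex as terms) over its 3 groups, with Benjamini-Hochberg adjustment over all genes tested and a call at an adjusted p below 0.05. The test covered 16609 genes for cortex, 16005 for kidney, 13604 for liver and 16784 for WAT. A joint fit of 20888 genes over all libraries gave differences between tissues. Alternatives used DESeq2 1.42.0, limma 3.58.1 (voom with quality weights), other scalings, filters, covariates and left-out libraries. Relations were computed in python 3.11.15 with numpy 2.4.6 and pandas 2.3.3 on log2 CPM with a prior count of 2. The scripts were tested on simulated data. Sums of counts per library ran from 4031533 to 29269511, which limits precision most for low genes such as Npas2 and Arntl outside cortex.

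All 10 members are named. Of 30 other clock genes, up to 4 called with the smallest p are named per tissue and comparison, except for results of 1 item that is not reported here, and the 3 genes most and least like Arntl were chosen per tissue. The members and lists were chosen with earlier results of these data known. Libraries of 1 animal are tied across tissues by the animal's label, and nothing states how cages or days were shared, so p-values measure the spread between these animals. Exon lengths come from GENCODE on GRCm38.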

Additional observations from a re-analysis of the deposited data

Results flagged for a closer look

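In 13 of 120 groups of 1 gene in 1 tissue, 1 library stood apart from the rest of its group by the gap between it and its nearest neighbour as a share of the group's range; chance gives about 1 in 20. Of the 13, 6 lay in WAT, 3 in kidney, 3 in liver and 1 in cortex, and 6 belonged to TLS animal A5DA.

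A5DA was the lowest TLS animal for Cry2 in kidney (gap share 0.531, 13.1 CPM with the next at 25.2 CPM), liver (0.532, 17.0 and 25.5 CPM) and WAT (0.714, 28.5 and 66.5 CPM). It was also the lowest for Nr1d2 in kidney (0.561, 31.9 and 54.96 CPM), Per2 in kidney (0.658, 5.40 and 24.9 CPM) and Per3 in WAT (0.529, 36.1 and 79.4 CPM). Its immune cell markers were the highest and its own tissue markers the lowest in all 3 tissues, and their part in these values was not tested.

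Time-0 animal T0_6 was the lowest of its group in WAT for Clock (0.678, 32.5 and 52.2 CPM), Cry2 (0.68, 45.95 and 69.8 CPM) and Nr1d1 (0.581, 113.8 and 220.1 CPM). Its WAT markers summed to 5970 CPM, the second lowest of the 23 WAT libraries, and their part was not tested. Per1 in WAT was highest in TLS animal B51B (0.626, 179.7 CPM with the next at 120.03 CPM), the library with the highest skeletal muscle markers in WAT at 4410 CPM, whose part was not tested. Nr1d1 in liver was highest in time-0 animal T0_2 (0.603, 127.3 and 89.2 CPM). Clock in cortex was lowest in control animal 9BA4 (0.556, 51.6 and 60.98 CPM). Npas2 in liver had 1 count in TLS animal B4B9 and 0 in the other TLS animals (gap share 1).

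The control against time-0 change of Nr1d1 differed between tissues (edgeR adjusted p = 0.00322), with log2 fold changes of -0.24 for cortex, -1.25 for kidney, -2.16 for liver and -1.30 for WAT from the fits of each tissue.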

How the results depend on the processing

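Of 1999 single values under alternatives other than leaving out 1 library, 1890 kept their side of the threshold, 59 lost a call and 34 gained one. The other 16 changed sign with a call before or after the change. Sign changes with no call on either side are counted among the 1890. Over all settings, leaving out 1 library among them, 85 of 232 genes and comparisons changed sign at least once. Of 206 counts, 39 moved, either by over 1.5 times or to or from 0. The cause was not tested. In TLS against control, 1 member rather than 0 was called in cortex with M libraries alone. The same held in liver with DESeq2, M libraries alone, limma or sex crossed with treatment. Of all genes, these fits called 3404 in cortex, against 899 as reported. In liver they called 620, 48, 1182 and 226 in that order, against 265 as reported. In TLS against time-0, M libraries alone called 4 in cortex and 0 in kidney, liver and WAT, and F libraries alone 0 in liver and WAT. The nuclear RNA share as a covariate gave 3 in cortex and 2 in WAT, no sex covariate 1 in kidney, no filter 2 in liver, DESeq2 2 and limma 3 in WAT. In control against time-0, F libraries alone called 6 in kidney and 0 in liver and WAT, M libraries alone 0 in kidney and WAT, and limma 4 in kidney, 3 in liver and 4 in WAT. Of all genes, F libraries alone called 1964 in kidney, 1 in liver and 47 in WAT, M libraries alone 0 in kidney and WAT, and limma 2493, 1402 and 726 in kidney, liver and WAT, against 50, 72 and 27 as reported. Library order differed between F and M time-0 mice, as given above, and its part in these counts was not tested. No filter, no sex covariate and leaving out time-0 animals 4 and 5 each gave 1 in kidney, only the 2 groups 3 in liver, and DESeq2 2 in WAT. Of all genes, these fits called 34, 12, 10, 349 and 210 in that order. Limma gave 2 members for the tissue difference of the TLS effect, 6 for that of control against time-0, and 1 for the sex difference in kidney and in liver. Without A5DA the sex difference in cortex had 1. Of all genes, these fits called 3137, 2919, 1992, 24 and 1101 in that order. Relations within tissues fell to 0 without the 2 farthest libraries and 1 without A5DA, and those between tissues were 5 with sex ignored and 0 without the 2 farthest.

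Leaving out 1 library gave 0 to 1 members in TLS against control in cortex and liver and 0 in kidney and WAT. TLS against time-0 gave 6 to 7 in cortex, 2 in kidney, 1 in liver and 1 to 2 in WAT. Control against time-0 gave 5 to 6 in cortex, 1 to 2 in kidney, 1 in liver and 0 to 2 in WAT. The sex difference gave 0 to 1 in cortex and 0 elsewhere, and the tissue difference 0 to 1 when 1 animal was left out.

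With library totals alone, Liver against Kidney turned to -0.78 for Arntl, -0.59 for Clock, -0.19 for Cry2, -0.44 for Nr1d1, -0.38 for Nr1d2, -0.58 for Per1, -0.0072 for Per2 and -0.17 for Per3. Liver against Cortex turned to -1.12 for Cry1, -1.02 for Nr1d2, -0.67 for Per2 and -0.88 for Per3, and WAT against Liver to 0.088 for Cry1, 0.80 for Nr1d2 and 0.31 for Per2. With F libraries alone, kidney Nr1d2 in control against time-0 turned to 0.42 (adjusted p = 0.00873).

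With the animal as a replicate block, the tissue difference of the TLS effect called 0 members and 451 genes, and that of control against time-0 called 1 member and 87 genes. Within a tissue, no paired analysis was possible because the groups hold different animals, and replicate numbers were given in accession order.

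Leaving out A5DA, leaving out time-0 animals 4 and 5, library totals alone and the tissue difference of control against time-0 were chosen after seeing the data. Low counts limit Npas2 in liver and Arntl in kidney and liver.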

Other observations

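Arntl and Nr1d1 were set against each other within each library as log2 CPM of Arntl minus that of Nr1d1. In kidney the difference lay between -5.95 and -1.92 in TLS mice (median -4.26) and between -6.98 and -1.17 in control mice (median -5.07), against between -6.56 and -5.11 in time-0 mice (median -5.53). In liver it lay between -6.83 and -3.10 in TLS mice (median -4.83) and between -5.31 and -1.43 in control mice (median -4.15), against between -8.19 and -5.30 in time-0 mice (median -6.24). In WAT the medians were -5.05 in TLS mice and -5.86 in control mice, against -5.74 in time-0 mice. In cortex they were -2.47 in TLS mice and -2.53 in control mice, against -2.21 in time-0 mice. Controls thus had a lower median than time-0 mice in cortex and a higher one in kidney and liver. In WAT the median was slightly lower in controls, but the mean was higher, at -5.395 against -5.696 in time-0 mice. These differences were not tested.

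The member with the largest SD of log2 CPM was Npas2 in kidney of TLS mice (1.51), Per2 in liver of TLS mice (1.68) and Npas2 in WAT of TLS mice (1.36). Without A5DA these were 1.07, 1.21 and 1.17. In control mice it was Arntl in kidney (1.27) and liver (1.09) and Npas2 in WAT (1.14). Per1 had the largest SD in cortex of TLS, control and time-0 mice, at 0.262, 0.212 and 0.354.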
